A study of Mus musculus with 6 samples.

Results

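The natriuretic peptide genes Nppa and Nppb, the protease gene Corin and the receptor genes Npr1, Npr2 and Npr3 were examined in lungs dissected from mouse embryos at stage E18.5, shortly before birth. These 6 genes were taken from 18217 genes with a symbol on the array by matching the accessions of the non-control probes to the symbols, and they were measured by 12 probes in 30 spots per array. The difference between knockout and wild type lungs was among the values that chose them, so their differences are described without a test. The knockout embryos were labelled null for Dppa2, also called ECAT15-2, and homozygous for a floxed allele of Dppa4 (15-2-/-, 15-1Flox/Flox, 3 embryos, knockouts 1 to 3). The 3 embryos they were set against (wild types 1 to 3) carried 15-2+/+ and 15-1+/+, and all came from crosses of 15-1+/Flox, 15-2+/- parents. The floxed Dppa4 allele therefore went with the Dppa2 null allele in every knockout. The mice were of mixed strain, from 129Sv stem cells, C57/BL6 and transgenic mice with Cre or FLPe whose background is not known, and the labels give neither litter nor sex.

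Atrial natriuretic peptide (ANP), the product of Nppa, and B-type natriuretic peptide (BNP), the product of Nppb, are hormones of heart muscle cells that lower blood volume and relax blood vessels. Corin, a membrane-bound serine protease of heart muscle cells, cuts pro-ANP into the active hormone. The receptor NPR1 makes cyclic GMP when ANP or BNP binds, NPR2 does so for C-type natriuretic peptide (CNP, from Nppc), and NPR3 binds all these peptides and removes them from the circulation. In mice, heart muscle cells also sheathe the pulmonary veins within the lung, and the lung vasculature is a known site of ANP action.

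Each array held the RNA of 1 lung labelled with Cy3, and levels are log2 intensities relative to the 75th percentile of the array, which is 0. Between 63.3% and 68.8% of the probes on knockout arrays and between 66.1% and 66.6% on wild type arrays lay well above background, and no spot was saturated. All 9 lung epithelial marker genes examined were above background on all 6 arrays, among them Sftpc, the surfactant protein of alveolar type 2 cells. The Dppa2 probe lay at -4.94, -4.98 and -4.07 in knockouts 1, 2 and 3, against -3.24, -3.52 and -3.57 in wild types 1, 2 and 3 (difference -1.22, limma adjusted p = 0.0602), and was well above background on all 6 arrays, although the labels give the knockouts as 15-2-/-. The sources used here do not say whether the null allele removes its target. The Dppa4 probe was not well above background on any array. Wild types 1 and 2 had signal at all 6 Y-linked probes and at 0 of 4 Xist probes, whereas the other 4 arrays had the reverse, so that sex was not balanced between the groups. Knockout 3 shared slide 1 with wild types 1 and 2, knockouts 1 and 2 shared slide 2, and wild type 3 lay on slide 3. The raw files of wild types 1 and 2 share a number, as do those of knockouts 1 and 2 and those of knockout 3 and wild type 3. The labels do not give its meaning, and only the last of these pairs holds both groups. Over all 19856 features tested (26657 probes passed the background filter), 261 changed at a limma adjusted p under 0.05, 141 higher and 120 lower in knockout lungs. An unadjusted p under 0.05 was found for 5105. With quantile normalization the balance turned to 58 higher and 138 lower, and with median scaling to 89 and 227. Median scaling shifted the median knockout minus wild type difference of all features to -0.12, against 0.01.

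Nppb and Nppa lie next to each other on chromosome 4, with 0 genes between them in the RefSeq table. The 250 bases before the start of each peptide gene and of Corin are shown from RefSeq (GRCm38.p6), because the heart factors that are known to act on the peptide promoters were also measured. Capitals mark matches on either strand to 5 motifs that are known from heart promoters, none of which overlap here. The letters AAGTG are the core of sites for Nkx2-5 and related homeobox factors. Zinc finger factors of the Gata family bind to the letters GATAA in the same way. T-box factors such as Tbx5 bind to a short site with the letters TCACACC. The TATA box, where transcription starts are set, was searched as TATAAA, and the M-CAT element of TEAD factors was searched as GGAATG. The Nppa stretch is chr4:148000472-148000721 on the plus strand, the Nppb stretch chr4:147985650-147985899 on the plus strand, and the Corin stretch chr5:72504541-72504790 on the minus strand.
Nppa: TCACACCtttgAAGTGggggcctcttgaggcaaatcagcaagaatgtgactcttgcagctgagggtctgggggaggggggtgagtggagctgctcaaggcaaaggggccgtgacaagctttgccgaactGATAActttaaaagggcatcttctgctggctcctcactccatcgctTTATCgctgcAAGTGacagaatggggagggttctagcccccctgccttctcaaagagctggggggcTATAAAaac
Nppb: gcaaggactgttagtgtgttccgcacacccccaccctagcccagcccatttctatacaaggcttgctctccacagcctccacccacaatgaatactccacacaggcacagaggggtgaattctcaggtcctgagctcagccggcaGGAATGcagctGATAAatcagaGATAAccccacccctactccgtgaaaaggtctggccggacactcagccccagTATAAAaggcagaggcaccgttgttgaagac
Corin: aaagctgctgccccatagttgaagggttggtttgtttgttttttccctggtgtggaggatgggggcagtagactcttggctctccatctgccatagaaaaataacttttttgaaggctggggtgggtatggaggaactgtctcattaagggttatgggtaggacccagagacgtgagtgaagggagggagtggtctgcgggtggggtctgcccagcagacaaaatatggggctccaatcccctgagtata

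The Nppa stretch held 2 Nkx sites, at 239 and 65 bases before the start, 2 Gata sites and 1 T-box site at its far end. Its 1 match to the TATA box began only 9 bases before the start given by RefSeq. The Nppb stretch held 2 Gata sites, at 94 and 83 bases before the start, 1 M-CAT element and 1 TATA box at 31 bases. The Corin stretch held 0 matches to these 5 motifs, and so did the same stretch of Npr1, Npr2 and Npr3. Of 32851 promoters of the same length, 40.71% held the Nkx site, 22.58% the Gata site, 12.37% the TATA box, 12.64% the M-CAT element and 3.333% the T-box site. A match describes the letters and is not evidence of a bound site.

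Nppa, the ANP gene, was lower in all 3 knockout lungs than in any wild type lung, and 1 wild type lung stood far above the rest. The probe A_52_P580582 lay at -6.22, -5.58 and -5.72 in knockouts 1, 2 and 3, against -3.36, -4.80 and -5.06 in wild types 1, 2 and 3. In intensity these were 22.5, 34.2 and 32.3 units in knockout lungs against 163, 54.7 and 48.7 units in wild type lungs. The groups did not overlap, wild type 1 was the highest array and knockout 1 the lowest. The mean was -5.84 ± 0.34 in knockout and -4.41 ± 0.91 in wild type lungs (SD, n = 3 each), so that knockout minus wild type was -1.43 (SE, the standard error, 0.43; 2.70-fold lower in knockout lungs). Knockout 1 was not well above background, and with the lowest level called so on that array in its place the difference was -1.29 (2.44-fold). Wild type 1 lay 2.96-fold above the mean of wild types 2 and 3, and without it the difference was -0.91 (1.88-fold). The difference was -0.66 between knockout 3 and wild type 3, -0.78 with a term for the 2 arrays with Y-linked signal, and -1.63 within slide 1. In whole lung RNA, fewer cells of a type and less RNA per cell cannot be told apart.

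Nppa is one of the few genes that the array measures in repeated spots, 10 for each of its probes, which gives the reading error within an array. The SD between the spots of A_52_P580582 was between 0.0972 and 0.399 on the 6 arrays, and the range between arrays, which also holds labelling, hybridisation and slide differences, was 0.64 in knockout and 1.69 in wild type lungs. All 10 spots of wild type 1 were brighter on this scale than every spot of the other 5 arrays, outlier-flagged spots included. The probe was well above background on 2 of 3 knockout arrays and on 3 of 3 wild type arrays. On knockout 1, 0 of the 9 spots without an outlier flag were well above background. The second probe, A_51_P361340, was dim: it lay at -7.83, -8.87 and -8.16 in knockouts 1, 2 and 3, against -5.86, -7.65 and -7.65 in wild types 1, 2 and 3. It was well above background on wild type 1 alone, where both probes were highest, so that no fold is given for it. The SD between its spots was up to 0.676, and over the 6 arrays its levels had r = 0.845 with those of the other probe.

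**Figure D1:**
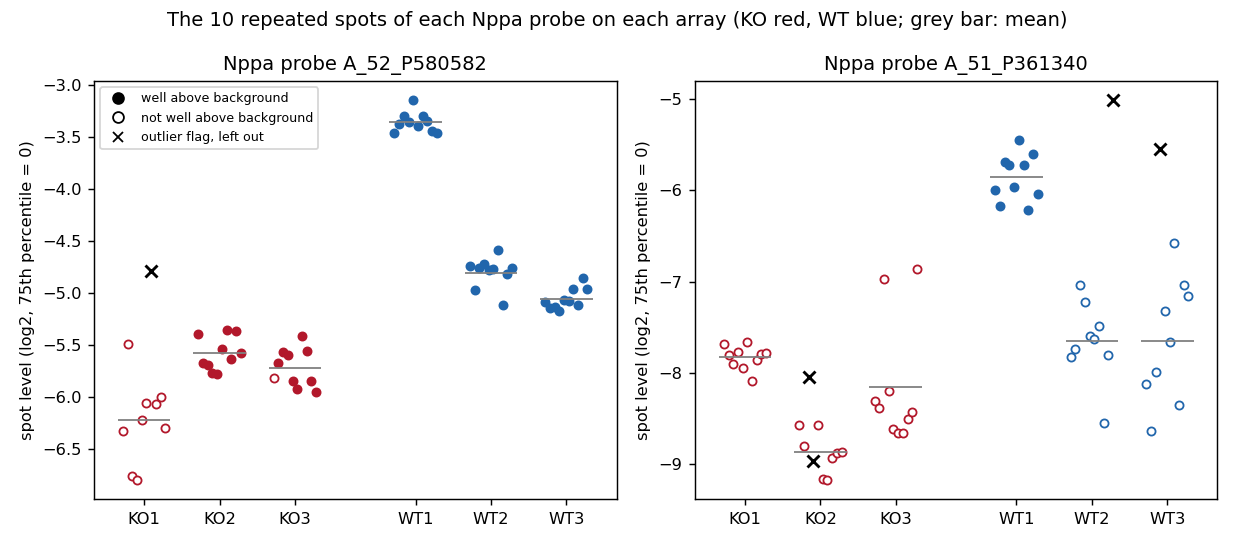
Spot levels of both Nppa probes (log2, 75th percentile of the array = 0) on the 3 knockout arrays (red) and the 3 wild type arrays (blue). Filled points are well above background, open points are not, crosses are spots with an outlier flag, and grey bars are means of the other spots. The mean of wild type 1 is above that of every other array at both probes.

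The value of Nppa depended on how repeated spots were summarised. The authors' deposited table gives A_52_P580582 at -0.18, -0.84 and -0.99 in knockouts 1, 2 and 3, against 1.49, 0 and -0.21 in wild types 1, 2 and 3, as log2 relative to the wild type median. The same quantile-normalized values from the spots without an outlier flag gave -1.64 for knockout 1, against -0.18 in the authors' deposited table. On that array 1 of the 10 spots was well above background, and this spot carried the outlier flag. The knockout minus wild type difference was -1.09 in the authors' deposited table and -1.58 from the spots without a flag. For A_51_P361340, which was not well above background on 5 of the 6 arrays, no difference is given, and in wild types 2 and 3 the 1 spot well above background on each carried an outlier flag.

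Nppb, the BNP gene and the neighbour of Nppa, was not well above background at either probe on any of the 6 arrays, so it has no measured difference. The probe A_51_P426195 lay between -8.62 and -8.00 in knockout lungs and between -8.82 and -8.65 in wild type lungs. The probe A_52_P559955 lay between -8.17 and -6.98 in knockout lungs and between -8.41 and -7.48 in wild type lungs. The lowest level that was called well above background was between -6.86 and -5.79 on knockout arrays and between -6.56 and -6.39 on wild type arrays, above every Nppb value on the same array.

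Corin, the protease that activates ANP, differed the other way and was higher in all 3 knockout lungs. Its probe A_51_P135268 lay at -3.57, -4.20 and -4.62 in knockouts 1, 2 and 3, against -4.95, -5.17 and -5.03 in wild types 1, 2 and 3, and was well above background on all 6 arrays. The groups did not overlap, the wild type lungs lay close together, and knockout 1 was the highest. The mean was -4.13 ± 0.53 in knockout and -5.05 ± 0.11 in wild type lungs (SD, n = 3 each), a difference of 0.92 (SE 0.25; 1.89-fold). The difference was 0.64 without knockout 1, 0.44 within slide 1 and 0.40 between knockout 3 and wild type 3. As the groups did not overlap, no such subset of arrays could change its sign. Corin has 1 probe on this array, so that no second reading exists here.

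**Figure D2:**
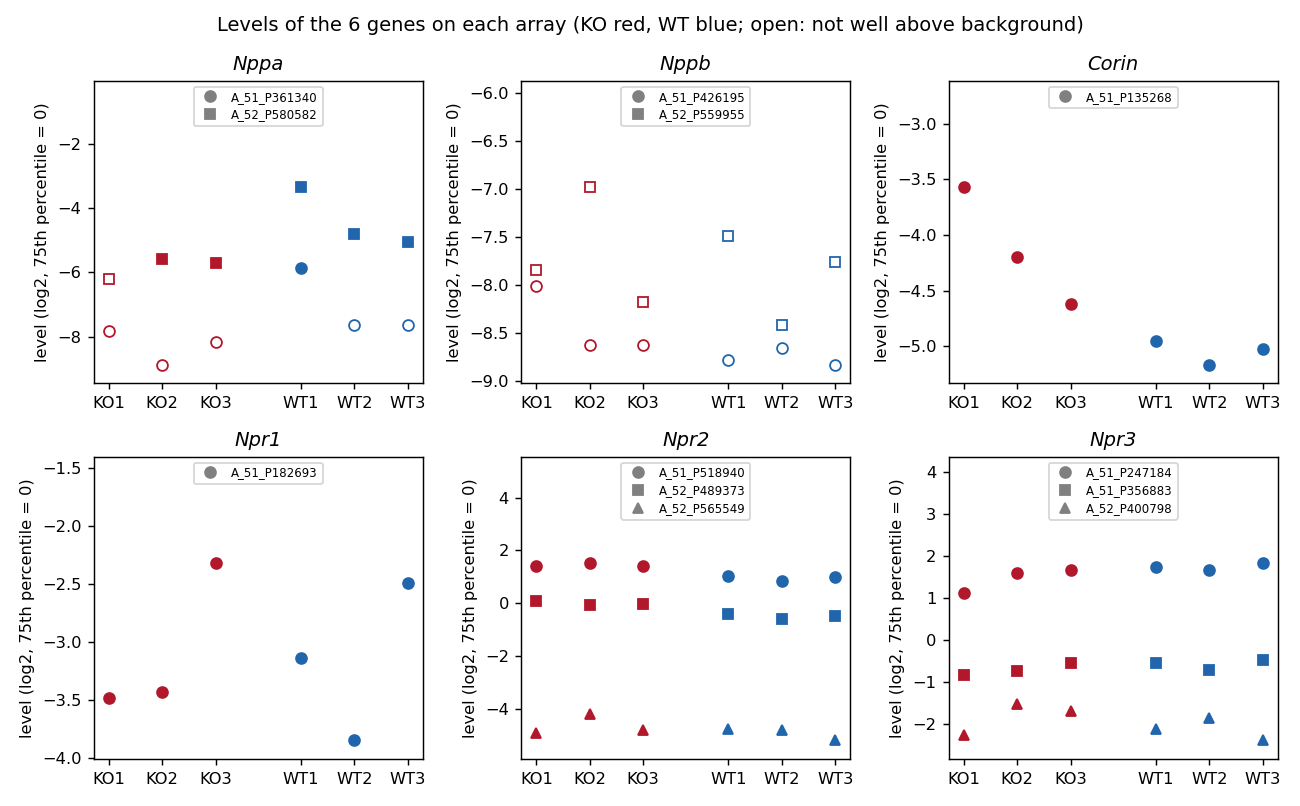
Levels of the 6 genes on each array (log2, 75th percentile of the array = 0), knockout arrays in red and wild type arrays in blue, with a marker shape for each probe and open markers where a probe was not well above background. Of the probes past the background filter, those of Nppa and Corin and 2 of Npr2 have groups that do not overlap.

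Npr1, the cyclase receptor of ANP and BNP, had overlapping groups. Its probe A_51_P182693 lay at -3.48, -3.43 and -2.32 in knockouts 1, 2 and 3, against -3.13, -3.85 and -2.49 in wild types 1, 2 and 3. The highest arrays of the groups were knockout 3 and wild type 3, whose raw files share a number, and wild type 2 was the lowest. The difference was 0.08 (SE 0.41), less than the SD of 0.66 in knockout and 0.68 in wild type lungs. It was 1.17 within slide 1 and -0.58 with a term for the arrays with Y-linked signal. Leaving out 1 array gave -0.30 to 0.41, so its sign was not stable.

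Npr2, the cyclase receptor of CNP, was higher in knockout lungs at the first 2 of its 3 probes given here. The probe A_51_P518940 lay at 1.40, 1.52 and 1.41 in knockouts 1, 2 and 3, against 1.02, 0.84 and 0.99 in wild types 1, 2 and 3. The groups did not overlap, and the spread within each was small. The mean was 1.45 ± 0.07 in knockout and 0.95 ± 0.10 in wild type lungs (SD, n = 3 each), a difference of 0.50 (SE 0.11; 1.41-fold). The probe A_52_P489373 lay at 0.08, -0.05 and -0.02 in knockout lungs against -0.39, -0.60 and -0.49 in wild type lungs, a difference of 0.50 (SE 0.11; 1.42-fold). Over the 6 arrays these 2 probes had r = 0.956. The third probe, A_52_P565549, lay between -4.90 and -4.18 in knockout and between -5.19 and -4.77 in wild type lungs, with overlapping groups and a difference of 0.30 (SE 0.21), which was 0.08 without knockout 2 and 0.01 within slide 1. The difference of A_51_P518940 was between 0.37 and 0.54 in the 20 alternatives, 0.48 within slide 1 and 0.43 between knockout 3 and wild type 3.

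Npr3, the clearance receptor, had overlapping groups at all 3 probes. The probe A_51_P247184 lay at 1.12, 1.59 and 1.66 in knockouts 1, 2 and 3, against 1.72, 1.65 and 1.82 in wild types 1, 2 and 3. Knockout 1 was the lowest array, and the difference was -0.28 (SE 0.16), -0.11 without knockout 1 and -0.03 within slide 1. The probe A_51_P356883 lay between -0.83 and -0.55 in knockout and between -0.71 and -0.47 in wild type lungs (difference -0.14, SE 0.12). The probe A_52_P400798 lay between -2.26 and -1.54 in knockout and between -2.39 and -1.85 in wild type lungs, with a difference of 0.29 in the opposite direction, which ran from 0.14 without knockout 2 to 0.69 between knockout 3 and wild type 3. Its levels had r = 0.109 and -0.256 with those of the other 2 probes, which had r = 0.845 with each other.

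Of the 12 probes, 9 passed the background filter, for 5 of the 6 genes, and the groups did not overlap at 4 of these 9. The groups did not overlap in 31.3% of all features tested, and as the genes were chosen on this contrast nothing is read from the comparison.

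**Figure D3:**
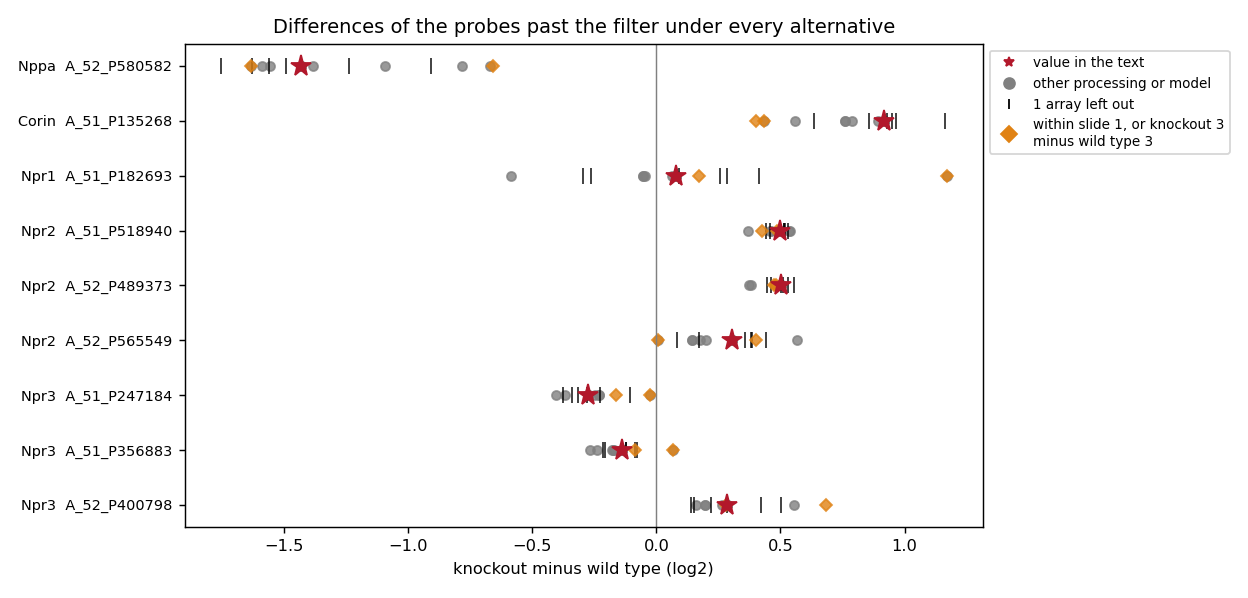
Knockout minus wild type difference (log2) of the 9 probes past the background filter: the value in the text (star), other processing or models (grey), 1 array left out (bars), and slide 1 alone or knockout 3 minus wild type 3 (diamonds). All values of Nppa are negative and all values of Corin and Npr2 positive, whereas those of Npr1 lie on both sides of 0. Where the groups do not overlap, subsets of arrays could not change the sign.

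The genes around these peptides and receptors were read from 6 lists with 43 tested genes, of which 0 rose and 2 fell. The background was 1.31% of all features changed, 0.71% higher and 0.604% lower. Of the genes for peptide processing and clearance, 0 of 5 tested passed. Nppc, the CNP gene, lay at -3.29, -3.55 and -3.36 in knockout lungs against -2.61, -2.75 and -3.39 in wild type lungs, with overlapping groups (difference -0.49, SE 0.21, limma adjusted p = 0.203). Ide, a protease that degrades natriuretic peptides, differed by -0.30 (adjusted p = 0.189), and Furin, the convertase that cuts pro-BNP and pro-CNP, by -0.12 (0.61). Mme, the neprilysin gene, differed by 0.09, and its other probe by -0.14. Ostn, whose peptide binds NPR3, was not well above background on any array.

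Of the other guanylyl cyclases, 0 of 3 tested passed. Gucy2c, the gut receptor of guanylin, differed by -0.70 (adjusted p = 0.0941) and was above background on 2 of 3 knockout arrays. Gucy1a1 and Gucy1b1, the subunits of the soluble cyclase that nitric oxide activates, differed by -0.19 (0.323) and 0.05 (0.828). Of the genes that act on or through cyclic GMP, 0 of 10 tested passed, with a median difference of -0.13. Prkg2, a cyclic GMP-dependent kinase, differed by -0.82 (adjusted p = 0.0861), and its groups did not overlap. Pde1a, a phosphodiesterase, differed by -0.43 (0.0967) and Cnga2, a channel subunit gated by cyclic nucleotides, by -0.30 (0.15). Prkg1, the kinase of smooth muscle, differed by -0.18, and Pde5a, the cyclic GMP phosphodiesterase of lung vessels, by 0.03. Nos3, the endothelial nitric oxide synthase, differed by -0.03 (0.913), and it was the only one of the 3 synthase genes tested. Of 13 genes of other vasoactive hormones, 0 passed. Ednrb, an endothelin receptor, differed by 0.65 (limma adjusted p = 0.118), and Agt, the angiotensin precursor, by -0.49 (0.142).

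Of 11 tested regulators known to act on the peptide genes or in heart muscle, 0 rose and 2 fell, with a median difference of -0.08. Nkx2-5, the homeobox factor of heart muscle, lay at -4.96, -5.27 and -5.13 in knockout lungs against -3.44, -3.39 and -3.34 in wild type lungs. The groups did not overlap, and both were narrow. It fell by 1.73 (SE 0.12; 3.32-fold; limma adjusted p = 0.00334), by 1.71 within slide 1 and by 1.79 between knockout 3 and wild type 3. With the local background subtracted and an offset it fell by 1.01 (adjusted p = 0.00526). The Nkx2-5 call was lost in 1 of 20 alternatives, when slides were fitted as blocks. Only slide 1 held both groups, so that fit rested on knockout 3 against wild types 1 and 2. The other 9 tested regulators did not pass. Among them Myocd, a coactivator of smooth and heart muscle genes, differed by 0.42, Mef2c, a muscle factor, by 0.31, Gata6 by -0.08 (0.28 and 0.12 at its other probes) and Tbx5 by 0.00. Gata4, Tbx20 and Hand2, factors of the heart field, were not tested because their probes missed the background filter.

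**Figure D4:**
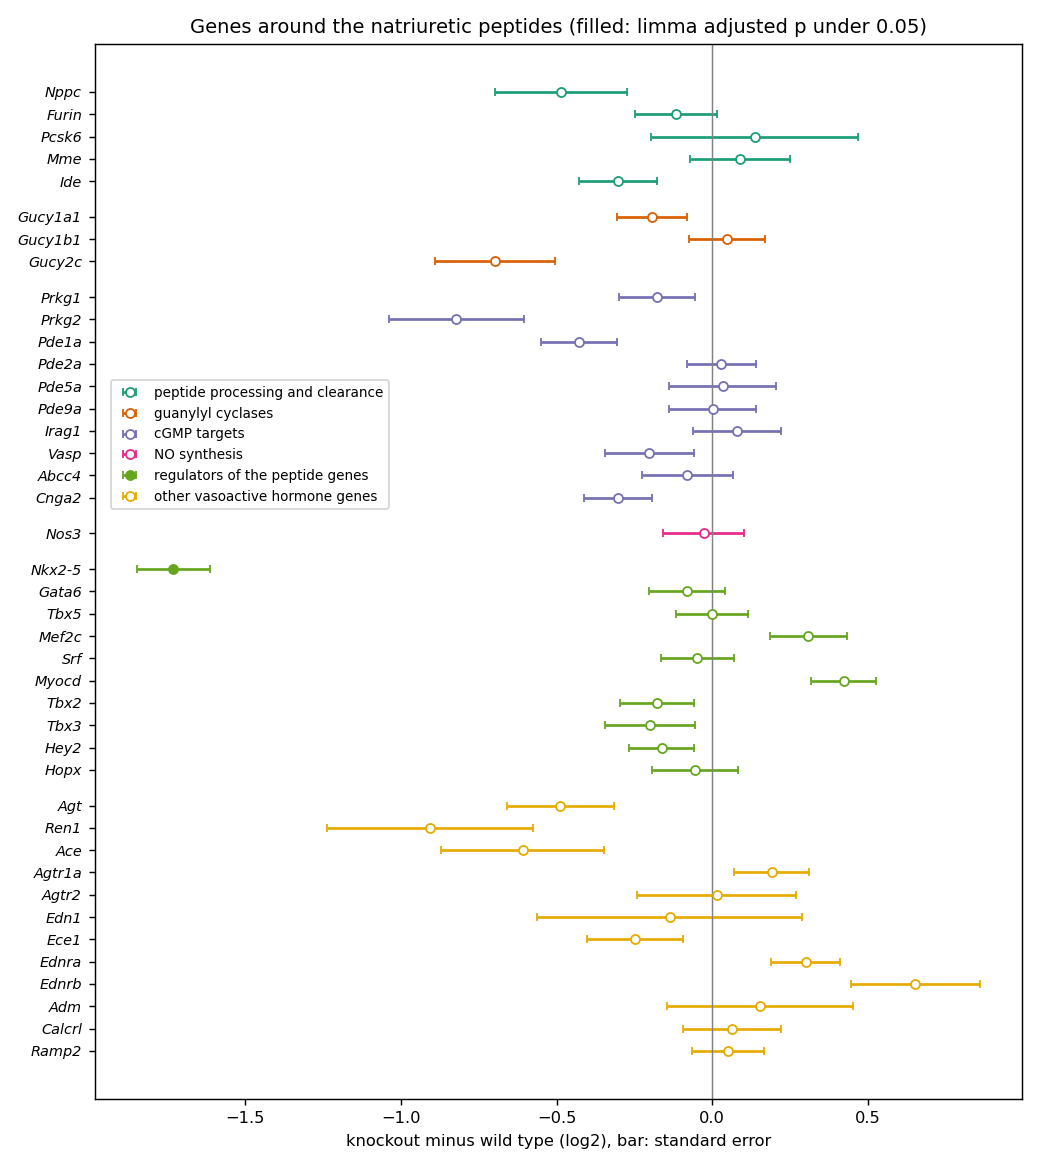
Knockout minus wild type difference (log2, points) with its standard error (bars) for the tested genes of the 6 lists that are reported here, coloured by list and filled where the limma adjusted p was under 0.05. Nkx2-5 is the filled point.

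Most marker genes of heart muscle cells had lower levels in knockout than in wild type lungs. Of the 23 tested, 13 fell and 0 rose, against the background of 0.604% lower, and 10 did not pass. Pln, Myl2 and Ttn, of which Ttn did not pass, entered the test through the wild type arrays alone. With probes above background on all 6 arrays required, 11 of 20 markers fell. The median difference of the 23 was -1.44, against 0.01 for all features. These lists were chosen with earlier results of these data known, so the count is not independent evidence of the direction. Of 6 atrial markers, 3 fell: Myl7, the atrial regulatory light chain of myosin (difference -1.46), Myl4, the atrial essential light chain (-1.72), and Sln, the atrial regulator of the calcium pump (-2.05). Kcna5, an atrial potassium channel, differed by 0.29, Gja5, a connexin of atria and arteries, by -0.53, and Bmp10, a ligand of trabecular and atrial muscle, was not well above background on any array. Of 4 ventricular markers, 2 fell, Myl3 (-2.44; -1.37 at its other probe) and Myl2 (-1.59, above background on 1 of 3 knockout arrays). Of 13 general cardiac markers 8 fell, among them Csrp3, a Z-disc protein (-2.14), Actn2, the sarcomeric alpha-actinin (-1.19), and Tnni3, the cardiac troponin I (-1.44). Pln, the brake of the calcium pump, was at least 1.73-fold lower. All its knockout arrays were below background, and this bound was set with the lowest level called well above background on each of them. The limma fit used the values below background, so that its call does not test this bound. The 11 fallen markers that were above background on all 6 arrays differed by -2.47 to -1.21 within slide 1. Between knockout 3 and wild type 3 they differed by -2.36 to -1.31, and with the term for Y-linked signal by -2.48 to -1.26. Their groups did not overlap, so the negative signs were fixed in advance and only the sizes are described. The calls depended on the model, and most were lost when slides were fitted as blocks or with the term for Y-linked signal. The slide fit rested on knockout 3 against wild types 1 and 2. The Y-linked term left the knockouts against wild type 3 alone. Each fit thus had 1 lung on one side of the contrast. The median difference of the 11 markers was -1.81 within slide 1 and -1.82 with the Y-linked term, against -1.71 without either.

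The summed level of the 6 tested atrial markers was between 3.01 and 3.28 on knockout arrays and between 4.37 and 4.54 on wild type arrays (log2). That of the 13 general cardiac markers was between 2.82 and 2.94 on knockout arrays and between 3.81 and 3.86 on wild type arrays, and that of the 4 ventricular markers overlapped (4.56 to 5.19 on knockout and 4.92 to 5.45 on wild type arrays), where Myh7, a slow and cardiac myosin heavy chain, differed by -0.29. Sinus node markers were not tested, and Shox2 was not well above background on any array. Wild type 1, which had the highest Nppa, was the highest wild type array in the mean log2 level of each list. The means in wild types 1, 2 and 3 were 0.63, 0.37 and 0.49 for atrial markers. They were -1.02, -1.05 and -1.18 for ventricular and -0.97, -1.11 and -1.07 for general cardiac markers. The sums (linear, 75th percentile = 1) were 21.8, 20.6 and 23.3 for atrial markers. They were 43.2, 43.8 and 30.3 for ventricular and 14.5, 14.3 and 14.0 for general cardiac markers. Corin, which heart muscle cells also express, went in the opposite direction to the markers in all 3 knockout lungs. The part of heart muscle content in the Nppa result was not tested.

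**Figure D5:**
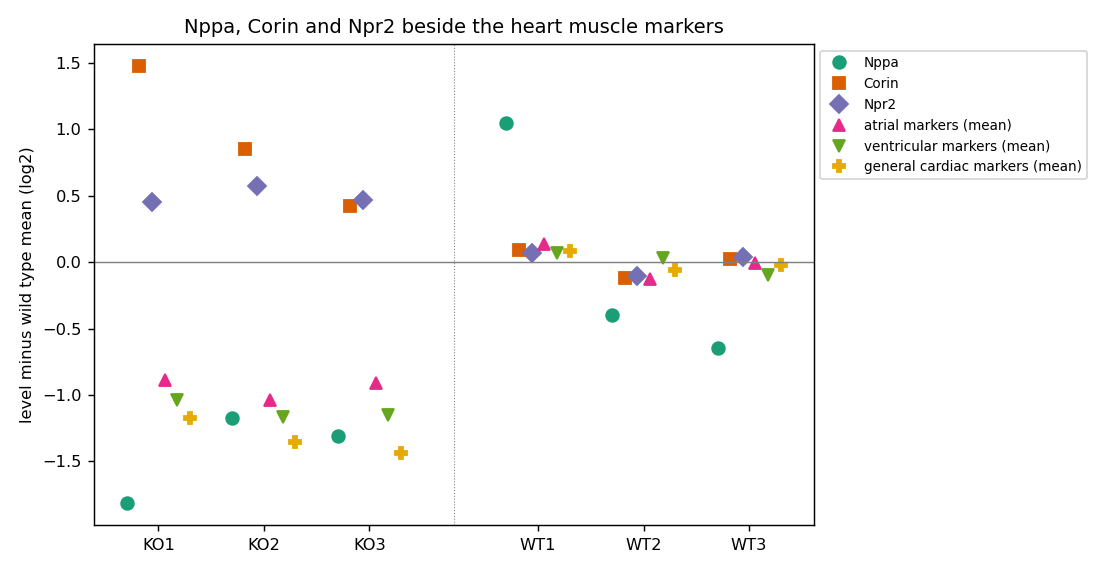
Levels of Nppa, Corin and Npr2 (brightest probe of each) and mean levels of 3 lists of heart muscle markers on each array, as log2 minus the wild type mean. The 3 marker means lie below 0 on all knockout arrays together with Nppa, whereas Corin and Npr2 lie above 0, and wild type 1 stands apart for Nppa.

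Of 7 tested skeletal muscle genes, 1 fell, Ckm, the muscle creatine kinase (-2.05), which heart muscle also expresses, and Myod1 and Myog, the skeletal muscle determination factors, were not well above background on any array. Of 6 smooth muscle genes, 7 endothelial genes, 6 fibroblast and pericyte genes and 9 lung epithelial genes, which include cell types known to carry natriuretic peptide receptors, 0 passed. Their median differences were -0.05 for smooth muscle, 0.06 for endothelium, 0.12 for fibroblasts and pericytes and -0.18 for lung epithelium, against 0.01 for all features. Pecam1, an endothelial adhesion molecule, differed by 0.57 (limma adjusted p = 0.121), and Car4, the carbonic anhydrase of lung capillaries, by -0.79 (0.066). Scgb1a1, the secretoglobin of airway club cells, differed by -1.73 with groups that did not overlap (0.0733). Of 4 genes of squamous and basal epithelium, 0 passed, with a median of -0.51. The groups did not overlap at 3 of them, against 31.3% of all features tested. Krt14, a basal keratin, differed by -1.43 (limma adjusted p = 0.0522), above background on 2 of 3 knockout arrays. Krt15, the brightest of the 4, went the other way by 0.33, with overlapping groups.

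The genes whose levels over the 6 arrays were most like those of each receptor or peptide gene were taken from 13415 genes above background on all arrays. The 6 arrays share slides and groups, and the values only describe these arrays. For Nppa they were Lepr, the leptin receptor (r = 0.994), Krt5, a keratin of basal cells (0.989), and B3galt4, a glycosyltransferase (0.985). Krt5 lay at -3.80 in wild type 1, above the -4.54 and -4.57 of wild types 2 and 3, and between -4.98 and -4.75 in knockout lungs. For Corin they were Gabbr2 (r = 0.996), Trpm6 (0.993) and Tmem186 (0.990), for Npr1 Adcy5 (0.983), Serpine2 (0.972) and Slc44a1 (0.967), for Npr2 Cdh10 (0.999) and 9330151L19Rik (0.993), and for Npr3 Nxnl2 (0.993), Mblac2 (0.984) and Mt4 (0.983). These values are of the brightest probe of each gene. Between the 6 genes, Corin had r = -0.895 with Npr3, 0.804 with Npr2 and -0.703 with Nppa. Another Npr3 probe, A_52_P400798, had r = 0.109 with the one used here, and the Nppa probe was not well above background on knockout 1.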

How the data were processed

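Whole lung RNA of 3 knockout and 3 wild type embryos was hybridised to 1 array each (Agilent whole mouse genome, 1 colour). Per the file headers, the deposited scanner files hold an intensity per spot that Agilent Feature Extraction 10.7.3.1 had corrected for background, on a design that refers to mm9. Flags for spots well above background are those of the deposited files. The authors' deposited table of log2 values was made with GeneSpring GX 11, per the labels. Set against the scanner files, its columns differed from quantile-normalized log2 intensities relative to the wild type median by under 0.001 in the median, with column medians of 0 for wild types and 0.0108, -0.00698 and -0.000844 for knockouts 1, 2 and 3. The correlation of those columns with the same values was between 0.991 and 0.997. The scanner intensities were the main measurement and the authors' deposited log2 values an alternative.

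Log2 intensity minus the 75th percentile of the 43379 non-control spots of each array was used. Spots with an outlier flag (77 to 110 per array) were left out, and spots of a probe were averaged. A probe counted as well above background on an array where at least a 0.5 share of its spots were, and was kept if it did so on all arrays of 1 group. Symbols came from RefSeq accessions (26690 of 41174 probes, 64.8%), and 5 of 146 list genes had no probe by accession. Each gene was tested on its brightest probe with limma 3.58.1 in R 4.3.3 (two-sided, no covariate, Benjamini-Hochberg), which was checked on simulated data. Where all knockout arrays were below background, a fold is a lower bound. Named were the 6 genes with every probe, every passing gene of a pathway list or otherwise its 3 of smallest p, the 3 genes of highest r with each of the 5 that passed the filter, and up to 4 genes of smallest p per marker list. Other genes in the text were named after their values were seen. Some genes under this rule are not reported here. The 6 genes and the lists were chosen with earlier results of these data known. Nothing in the labels says that embryos came from separate litters. Same-numbered knockout and wild type arrays had correlations of -0.02, 0.04 and 0.03 of their deviations from the group means, so the numbers were not taken as pairs. The number of arrays, 3 in either group, limits the precision. All coordinates are of GRCm38.p6.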

Additional observations from a re-analysis of the deposited data

How the results depend on the processing

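The difference of Nppa ran from -1.76 to -0.66 in 19 alternatives. That of Corin ran from 0.40 to 1.16, and those of the Npr2 probes A_51_P518940 and A_52_P489373 from 0.37 to 0.55 (20 alternatives each). Their groups did not overlap, so subsets of arrays could not change the direction. Several alternatives, such as those on the filter, give the value of the text again by construction. The Npr1 difference ran from -0.58 to 1.17, and that of the Npr3 probe A_51_P356883 from -0.27 to 0.07. The Npr2 probe A_52_P565549 ran from 0.01 to 0.57, and the Npr3 probes A_51_P247184 and A_52_P400798 from -0.40 to -0.03 and from 0.14 to 0.69. Leaving out 1 array gave -1.76 to -0.91 for Nppa and 0.64 to 1.16 for Corin.

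Counts of features, pathway genes and cardiac markers changed were 261, 2 and 13. Leaving out 1 array gave 33 (without wild type 1) to 1970 features (without wild type 3), 1 to 4 pathway genes and 5 (without wild type 1) to 14 cardiac markers (without knockout 3). Without wild type 2 and without knockouts 1, 2 and 3 there were 54, 58, 79 and 443 features, and without wild type 2 8 cardiac markers. With no filter on dim probes the counts were 28, 1 and 3. With probes above background on at least 1 array, 96 features and 1 pathway gene changed, and with probes above background on all 6 arrays, 1 pathway gene did. Fitting slides as blocks gave 23, 1 and 1, and a term for the arrays with Y-linked signal gave 17, 1 and 2. Taking the file number as a random block gave 1706 features and 4 pathway genes, with an estimated correlation of -0.20. With the replicate number as a block, although the labels do not say that the numbers pair the embryos, 56 features changed. With slides as blocks, only slide 1 held both groups, so that fit rested on knockout 3 against wild types 1 and 2. Both arrays with Y-linked signal were wild type, so the fit with that term rested on the knockouts against wild type 3 alone. The causes of these shifts in the counts were not tested. The normexp background correction was not used, since its fit failed on knockout 3, where the lowest signal minus background was -69429.5. Whether that spot caused the failure was not tested. Plain subtraction with an offset of 50, chosen after the data were seen, gave 336 features, 2 pathway genes and 11 cardiac markers. Signal over background limits Nppb and the second Nppa probe.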

Other observations

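The way repeated spots enter the authors' deposited table can be read from the probes that the array repeats. Of 245 such probes, 73 had a different value (by over 0.1 on the log2 scale on some array) according to whether all spots, the spots without an outlier flag, or the spots well above background were averaged. The values in the authors' deposited table were closest to the mean of the spots well above background (of all spots where none was) for 58 of these 73 probes. They were closest to the mean of all spots for 14 and to the mean of the spots without an outlier flag for 1. The largest distance over the arrays was 0.0474 in the median for the first reading, 1.31 for the second and 1.43 for the third. For the Nppa probe A_52_P580582 the largest distance was 0.0176 for the first reading. On knockout 1 that reading rests on 1 spot and gave -0.17, against -0.18 in the authors' deposited table and -1.64 from the spots without an outlier flag.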
